A study of Mus musculus with 51 samples.

Results

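The comparison described here set lungs of mice exposed to methylene diphenyl diisocyanate (MDI) after crofelemer against lungs of control-exposed mice that had also received crofelemer. It used the 3 arrays titled as C57BL/6, MDI exposed and crofelemer, numbered 1 to 3, and the 5 arrays titled as C57BL/6, control and crofelemer, numbered 1 to 5. These 8 arrays were taken from 51 in the series, and all 22206 probe sets were tested. The mice were male C57BL/6 animals aged 6 to 8 weeks, and each had been sensitized through the skin with 1% MDI in acetone on 2 occasions, in the control groups too. Counted from the first skin exposure, the MDI groups received MDI reacted with glutathione through the airways on days 15, 16, 19 and 20, and the control groups received MDI and glutathione that had been reacted separately. Crofelemer was given through the nose at 4 mg/kg, 4 h before each of the 4 airway exposures, and whole lavaged lung was taken 48 h after the last one. The same contrast in C57BL/6 mice without crofelemer, 13 MDI arrays against 6 control arrays, was used to ask how the MDI effect differed with the drug. The fit behind the p-values also held arrays of other mice without crofelemer, 3 MDI and 3 control arrays of Balb/c mice and 7 MDI and 9 control arrays of B cell deficient B6.129S2-Ighmtm1Cgn/J mice, which added to the estimate of the spread. Control mice 1 to 4 with crofelemer list only crofelemer in 1 of their exposure labels, and control 5 has that label in another wording with no dose, while titles and descriptions put all 5 in the control group. No label names a batch.

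MDI is a monomer of polyurethane manufacture and a known cause of occupational asthma. In the allergic airway, type 2 cytokines such as IL-13 turn secretory epithelium towards goblet cells, which make mucins, the mucin-associated proteins CLCA1 and FCGBP, and pendrin (Slc26a4), an anion exchanger. Crofelemer is a plant-derived oligomeric proanthocyanidin that blocks the chloride channels CFTR and TMEM16A, the product of Ano1, and CLCA1 is known to raise TMEM16A activity at the cell surface.

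All values below are on the log2 scale deposited by the authors, in which a difference of 1 is a doubling, and errors are moderated standard errors for differences and SD for levels. The lung markers were near the top of that scale in the MDI and control arrays with crofelemer, with Sftpc (a surfactant protein of alveolar type 2 cells) averaging 19.38 in MDI lungs and 19.40 in control lungs, while Tg, a thyroid gene, averaged 5.02 and 5.04. The median SD between arrays was 0.257 in the MDI group with crofelemer and 0.296 in the control group with crofelemer. The median standard error of the MDI effect was 0.201 with crofelemer and 0.136 without it. In whole lung, fewer cells of a type and less RNA per cell cannot be told apart. Nothing in the labels says whether arrays of a group are separate animals, so p-values cover the spread between these arrays.

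With crofelemer, MDI changed few transcripts past the threshold, and the largest rise was in Clca1. At an adjusted p under 0.05 (limma, Benjamini-Hochberg over all probe sets), 12 probe sets passed, which is 0.054% of those tested: 8 were higher (0.036%) and 4 were lower (0.018%) in MDI lungs. At an unadjusted p under 0.05, 1826 probe sets passed (8.22%), of which 1031 were higher (4.64%) and 795 lower (3.58%). Every MDI array lay above every control array for 399 probe sets (1.80%) and below every one for 258 (1.16%). The same rule without crofelemer gave 3225 probe sets (14.5%), 1176 higher (5.3%) and 2049 lower (9.23%), from 13 and 6 arrays, so these counts stand beside different array numbers and are not a test of the drug. The count of 12 depended on single arrays: it was 4, 1 and 1 without MDI array 1, 2 or 3, and 6 and 7 without control array 3 or 4. Fitted on the 8 crofelemer arrays alone, limma called 8 probe sets (0.036%), and with the 27 C57BL/6 arrays, leaving out the Balb/c and B cell deficient mice, it called 2.

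By size, the largest 3 changes among the called genes were in the mucus genes Clca1, Fcgbp and Pigr. Clca1, a protein that goblet cells secrete with their mucins, was at 11.56, 15.97 and 15.00 in the 3 MDI lungs with crofelemer, against 6.06, 6.59, 6.41, 5.21 and 7.30 in the 5 control lungs with crofelemer. The groups did not overlap, and the lowest MDI lung, array 1, was still above the highest control. Clca1 rose by 7.86 ± 0.97 (limma adjusted p = 2.77e-06). It was called with any of the 8 arrays left out, with effects between 6.97 and 9.17, and in the 8-array fit (limma adjusted p = 1.73e-09). The moderated standard error in that fit was 0.559, while the SD of the 3 MDI lungs was 2.32. The smaller p-value of that fit therefore does not reflect their full spread.

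Fcgbp, the IgG Fc binding protein that is cross-linked into mucus, was at 7.52, 9.61 and 8.37 in MDI lungs with crofelemer, against 6.50, 5.93, 6.64, 6.00 and 6.41 in control lungs with crofelemer. All 3 MDI lungs were above all controls, with array 2 highest. The rise was 2.20 ± 0.42 (limma adjusted p = 0.0128, and 0.00268 in the 8-array fit). The moderated standard error in the 8-array fit was 0.321, with an SD of 1.05 in the MDI lungs. Without MDI array 2 it was 1.65 with an adjusted p of 0.192, and without MDI array 3 it was 2.27 with an adjusted p of 0.0593.

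Pigr, the receptor that carries IgA across the epithelium into the airway lumen, was at 10.76, 10.59 and 11.14 in MDI lungs with crofelemer, against 9.23, 9.61, 9.33, 8.79 and 9.60 in control lungs with crofelemer. The MDI lungs were close together and above all controls. Pigr rose by 1.52 ± 0.33 (limma adjusted p = 0.0498, and 0.0109 in the 8-array fit). This call lay at the threshold and was lost with any of 7 of the 8 arrays left out, with adjusted p-values up to 0.214 and effects between 1.36 and 1.64.

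Of 18 measured genes of the mucin and mucus protein list, these 3 were called higher, beside 0.036% of all probe sets, and none was called lower. The MDI effect was positive for 15, beside 11068 of all 22206 probe sets, with a median of 0.43 against -0.00 over all probe sets. The mean level of the 18 genes was 8.29, 9.19 and 8.50 in the MDI lungs with crofelemer. It was between 7.10 and 7.85 in the control lungs with crofelemer, so the groups did not overlap. That mean includes the 3 called genes. Gene by gene every MDI lung was above every control for 3 of the 18, the called genes themselves, beside 1.8% of all probe sets. Muc5ac, the inducible gel-forming mucin of goblet cells, was at 6.74, 8.43 and 6.06 in MDI lungs with crofelemer, against 5.72, 4.90, 5.63, 5.37 and 6.14 in control lungs with crofelemer. MDI array 3 lay below the highest control, and the difference of 1.52 ± 0.58 did not pass (limma adjusted p = 0.428). Muc5b, the gel-forming mucin that airways make without stimulation, differed by 1.03 ± 0.54 (limma adjusted p = 0.64), and Tff2, a trefoil peptide secreted with mucus, by 1.82 ± 0.55 (limma adjusted p = 0.255).

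MDI array 2 was the highest of the 8 arrays for Clca1, Fcgbp, Muc5ac, Muc5b and Tff2. It was also highest for Bpifa1, a secreted protein of the upper and conducting airway, at 11.70, where the other 2 MDI lungs had 8.57 and 8.40, and control lungs with crofelemer lay between 6.75 and 9.11. The atrial muscle gene Myl7 was at 10.22 in that array, where the other 2 MDI lungs had 7.72 and 8.45, and control lungs with crofelemer lay between 7.73 and 8.52. The mean level of 14 muscle, fat and thymus genes was 7.75 in MDI array 2, and 6.25 and 6.55 in the other MDI lungs, against 6.30 to 6.82 in control lungs with crofelemer. Of these 14 genes 13 had a positive effect, with a median of 0.34, and none passed the test. Without crofelemer their mean level was 6.19 to 8.57 in MDI lungs and 6.35 to 8.50 in control lungs. The part of this tissue makeup in the mucus gene levels was not tested, and Clca1 was called without array 2 while Fcgbp was not.

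**Figure D1:**
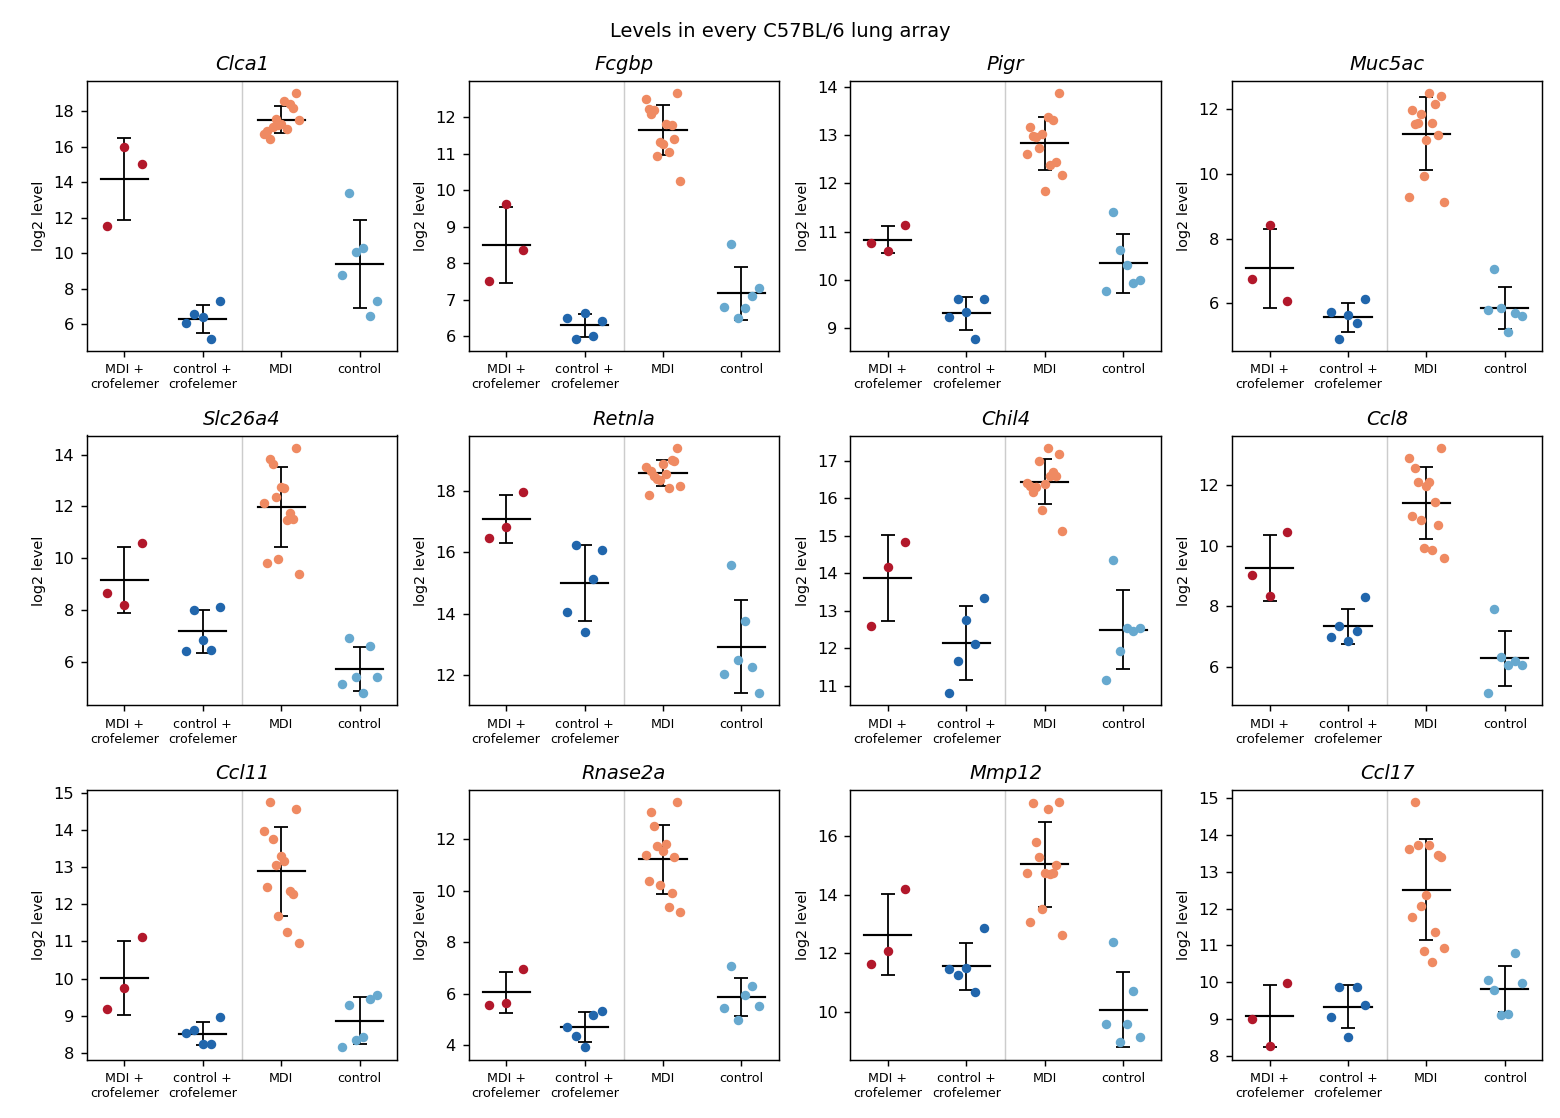
Deposited log2 level (y axis, a separate scale for each gene) of 12 genes in every C57BL/6 array, by group. Points are arrays, horizontal lines the group mean and bars the SD (n = 3, 5, 13 and 6). With crofelemer, the MDI arrays of Clca1, Fcgbp and Pigr lie above all 5 controls, while Ccl17 overlaps.

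The other called probe sets were small changes in genes outside the lists. Cep72, a centrosome protein, rose by 0.95 ± 0.18 (limma adjusted p = 0.0128), Dbpht2 by 0.75 ± 0.14 and Tchh, which encodes trichohyalin of the hair follicle, by 0.75 ± 0.15. Both were dim, with Dbpht2 averaging 4.83 in MDI lungs and 4.07 in control lungs with crofelemer, and Tchh 4.96 and 4.21, all below the level of Tg. The deposited values carry no detection call, so whether these probe sets were above background is not known, and the sizes of their differences may not be fold changes of a transcript. The gene models 1700003E24Rik and Gm14459 made up the remaining rises, and their means in control lungs with crofelemer, 4.26 and 3.84, were also below Tg. Ccdc25 fell to 7.20, 6.81 and 6.81 in MDI lungs with crofelemer, against 7.93, 8.25, 8.38, 7.79 and 7.87 in control lungs with crofelemer, a difference of -1.10 ± 0.19 (limma adjusted p = 0.00571). Psip1, a chromatin-binding transcriptional coactivator, differed by -0.93 ± 0.19 and Tsnaxip1, named for its interaction with translin-associated factor X, by -1.17 ± 0.25, and a probe set with no gene name was the fourth fall. The mean of Tsnaxip1 in MDI lungs with crofelemer, 4.53, was below the level of Tg, so the size of its fall may be off. For each named gene among these falls the MDI and control ranges did not overlap. Among the 12 calls, Clca1, Fcgbp and Pigr were the named genes of the lists, and of the 9 named by symbol under the rule for the largest changes only these 3 were also called in the 8-array fit. Adjusted p-values in that fit were between 0.0741 (Tsnaxip1) and 0.509 (Tchh) for the other 6.

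The resistin-like and chitinase genes named here had positive MDI effects with crofelemer, and none passed the test over all 49 arrays. Retnla, the secreted resistin-like molecule of alternatively activated macrophages and epithelium, was at 16.46, 16.82 and 17.95 in MDI lungs with crofelemer, against 14.07, 16.23, 13.41, 15.13 and 16.08 in control lungs with crofelemer. The MDI lungs were above all controls by a narrow gap, and the difference was 2.09 ± 0.57 (limma adjusted p = 0.186). Chil4, a chitinase-like protein also known as Ym2, was at 12.59, 14.16 and 14.83 in MDI lungs with crofelemer, against 10.80, 11.65, 12.74, 12.12 and 13.35 in control lungs with crofelemer, a difference of 1.73 ± 0.47 (limma adjusted p = 0.183). MDI array 1 lay below controls 3 and 5. Chia1, the acidic mammalian chitinase, differed by 1.38 ± 0.54 (limma adjusted p = 0.451), with control 5 at 8.62 and the other 4 controls between 6.85 and 7.11. Chil3, also known as Ym1, differed by 0.85 ± 0.33 (limma adjusted p = 0.451). All 6 measured chitinase family genes had positive effects and none was called.

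The upstream sequences of Retnla, Chil3 and Chil4 are shown as examples, chosen after their values were seen, of a letter pattern of the STAT transcription factors, in which TTC and GAA are separated by any 3 or 4 letters. STAT6, the factor of IL-4 and IL-13 signalling, is known for the spacing of 4, and other STAT factors for the spacing of 3. Both patterns read the same on either strand, and they were searched in the 250 bases before the start of each gene in the RefSeq promoter table (GRCm38.p6). Of 34 genes chosen by the naming rules, 26 had an entry and 6 held either pattern. Beside the 3 shown these were Ccl17, Il33 and Tsnaxip1, whose effects with crofelemer were -0.26, 0.32 and -1.17. Clca1 and Muc5ac had no entry in the table used. Over all 32851 promoters, 5.85% held the spacing of 4, 7.02% the spacing of 3 and 12.4% either. The match in Retnla has the spacing of 4, and those in Chil3 and Chil4 the spacing of 3. Capitals mark the match, and sequences run 5′ to 3′ on the strand of the gene.
Retnla, chr16:48842359-48842608, plus strand, match from base 145 to base 136 before the start: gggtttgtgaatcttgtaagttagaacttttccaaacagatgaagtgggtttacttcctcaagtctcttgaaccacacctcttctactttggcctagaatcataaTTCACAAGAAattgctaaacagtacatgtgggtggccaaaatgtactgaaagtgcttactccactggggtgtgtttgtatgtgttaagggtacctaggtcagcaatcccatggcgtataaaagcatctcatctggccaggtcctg
Chil3, chr3:106167565-106167814, minus strand, match from base 172 to base 164 before the start: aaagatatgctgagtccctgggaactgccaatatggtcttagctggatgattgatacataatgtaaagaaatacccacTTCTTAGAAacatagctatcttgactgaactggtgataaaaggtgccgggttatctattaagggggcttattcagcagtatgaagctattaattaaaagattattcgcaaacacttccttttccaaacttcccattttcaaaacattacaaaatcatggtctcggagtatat
Chil4, chr3:106219480-106219729, minus strand, match from base 200 to base 192 before the start: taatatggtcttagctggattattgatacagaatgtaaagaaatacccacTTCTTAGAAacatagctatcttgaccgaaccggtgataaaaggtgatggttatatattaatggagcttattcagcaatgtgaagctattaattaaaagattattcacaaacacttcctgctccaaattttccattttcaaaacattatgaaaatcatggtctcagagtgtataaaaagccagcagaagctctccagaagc
The match in Chil3 and Chil4 is the same 9 letters, in neighbouring copies of a family whose sequences are alike, and probe sets of such copies may share signal. A match is a description of these letters and not of a bound site.

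Ion transport genes other than Clca1 gave no call. Slc26a4 was at 8.66, 8.21 and 10.60 in MDI lungs with crofelemer, against 6.41, 8.02, 6.86, 6.46 and 8.13 in control lungs with crofelemer. The groups did not overlap, though MDI array 2 was close to controls 2 and 5, and the difference was 1.98 ± 0.72 (limma adjusted p = 0.398). For the chloride channel genes that crofelemer acts on no difference passed. Cftr differed by 0.26 ± 0.26 (95% interval -0.27 to 0.78) and Ano1 by 0.16 ± 0.17 (95% interval -0.18 to 0.50). Ano1 was at 15.03, 14.98 and 15.00 in MDI lungs with crofelemer and between 14.60 and 15.18 in control lungs with crofelemer. Of 36 measured chloride channel and anion transporter genes, Clca1 was the single call, 22 had a positive effect and the median was 0.12.

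Chemokine and eosinophil genes gave no call over the 49 arrays. The effect was positive for 11 of 13 measured monocyte and macrophage chemokines (median 0.36), for 5 of 11 type 2 chemokines and receptors (median -0.06) and for 10 of 19 CXC chemokines and receptors (median 0.04), beside 11068 of all 22206 probe sets. Ccl8, a monocyte and eosinophil attractant, was at 9.03, 8.33 and 10.46 in MDI lungs with crofelemer, against 7.01, 7.37, 6.87, 7.18 and 8.32 in control lungs with crofelemer. MDI array 2 and control 5 nearly met, and the difference was 1.92 ± 0.56 (limma adjusted p = 0.227). In the 8-array fit Ccl8 passed, with an adjusted p of 0.0372. Ccl11, the eotaxin that calls eosinophils through CCR3, was at 9.18, 9.74 and 11.12 in MDI lungs with crofelemer, against 8.54, 8.62, 8.25, 8.23 and 8.98 in control lungs with crofelemer, a difference of 1.49 ± 0.55 (limma adjusted p = 0.402). Ccr3 itself differed by 1.64 ± 0.52 (limma adjusted p = 0.29) and Rnase2a, an eosinophil-associated ribonuclease, by 1.36 ± 0.62 (limma adjusted p = 0.568). For each of these 4 genes the 3 MDI lungs were above all 5 controls, and MDI array 3 was highest. By list, this separation held for 4 of the 14 eosinophil genes and 2 of the 13 monocyte and macrophage chemokines. It held for 2 of the 11 type 2 chemokines and receptors, and for 399 of all 22206 probe sets (1.8%). The eosinophil granule gene Epx was low throughout, at 4.39, 3.90 and 4.13 in MDI lungs with crofelemer and 3.93 to 4.19 in control lungs with crofelemer. Of 14 measured eosinophil genes, 13 had a positive effect, 6 passed an unadjusted p under 0.05, none passed the adjusted test, and the median was 0.47.

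Other genes of type 2 immunity gave no call, and their effects had both signs. Ccl17, a CCR4 ligand made by dendritic cells and macrophages, was at 9.00, 8.27 and 9.97 in MDI lungs with crofelemer, against 9.05, 9.87, 8.50, 9.87 and 9.39 in control lungs with crofelemer, a difference of -0.26 ± 0.61 (limma adjusted p = 0.962). Without MDI array 2 its sign turned, to 0.15. Il13 was near the bottom of the scale, at 4.16, 4.25 and 4.18 in MDI lungs with crofelemer and 4.29 to 4.87 in control lungs with crofelemer, a difference of -0.30 ± 0.21 (limma adjusted p = 0.765). Il33, the epithelial alarmin, differed by 0.32 ± 0.37 (limma adjusted p = 0.896), and Arg1, arginase of alternatively activated macrophages, by 0.94 ± 0.66 (limma adjusted p = 0.77). Mmp12, macrophage elastase, was at 11.63, 12.09 and 14.21 in MDI lungs with crofelemer, against 11.48, 11.27, 11.49, 10.69 and 12.86 in control lungs with crofelemer. The difference of 1.08 ± 0.76 did not pass (limma adjusted p = 0.772), and the high MDI value was array 3.

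Control 5 was the highest control with crofelemer for Clca1, Muc5ac, Tff2, Slc26a4, Chil3, Chil4, Chia1, Ccl8, Ccl11, Rnase2a and Mmp12. A fit on the other 7 arrays with crofelemer, chosen after the data were seen, called 29 probe sets (0.131%), 25 higher and 4 lower in MDI lungs. The named rises were Clca1 (8.11), Retnla (2.37), Fcgbp (2.23), Slc26a4 (2.22), Ccl8 (2.17), Tff2 (2.13), Retnlg (2.04), Chil4 (2.03), Ccr3 (1.73), Chia1 (1.71), Muc5ac (1.67), Pisd-ps3 (1.65), Ccl11 (1.60), Pigr (1.59), Rnase2a (1.52), Mgl2 (1.49), Icos (1.37), Adh7 (1.29) and Gm14459 (0.96). Of the 25 rises, 18 were also called higher by MDI in mice without crofelemer, beside 1176 of all 22206 probe sets (5.3%). Some unnamed rises were called lower there, with effects between -2.49 and -2.62. Leaving out a gene's highest control enlarges its rise by itself. Control 5 left out of the 49-array fit gave 11 calls. The part of control 5 in the levels of the control group was not tested beyond these fits.

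Among genes that MDI raised most without the drug, the effect was smaller with crofelemer for Slc26a4, Muc5ac, Rnase2a, Retnla and others, while no difference was detectable for Clca1. Of 44 probe sets called and at least 4-fold higher without crofelemer, 39 had a positive effect with it, with a median of 1.01 with crofelemer and 2.77 without. All 44 were smaller with crofelemer, which the choice of the largest effects without the drug favours. Of 19 at least 8-fold higher without crofelemer, 18 were positive with it, with medians of 1.38 and 4.04. Over all probe sets, the 2 sets of effects had a Pearson correlation of 0.27 (Spearman 0.20), a description across genes from 8 arrays and 19 arrays that share none.

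**Figure D2:**
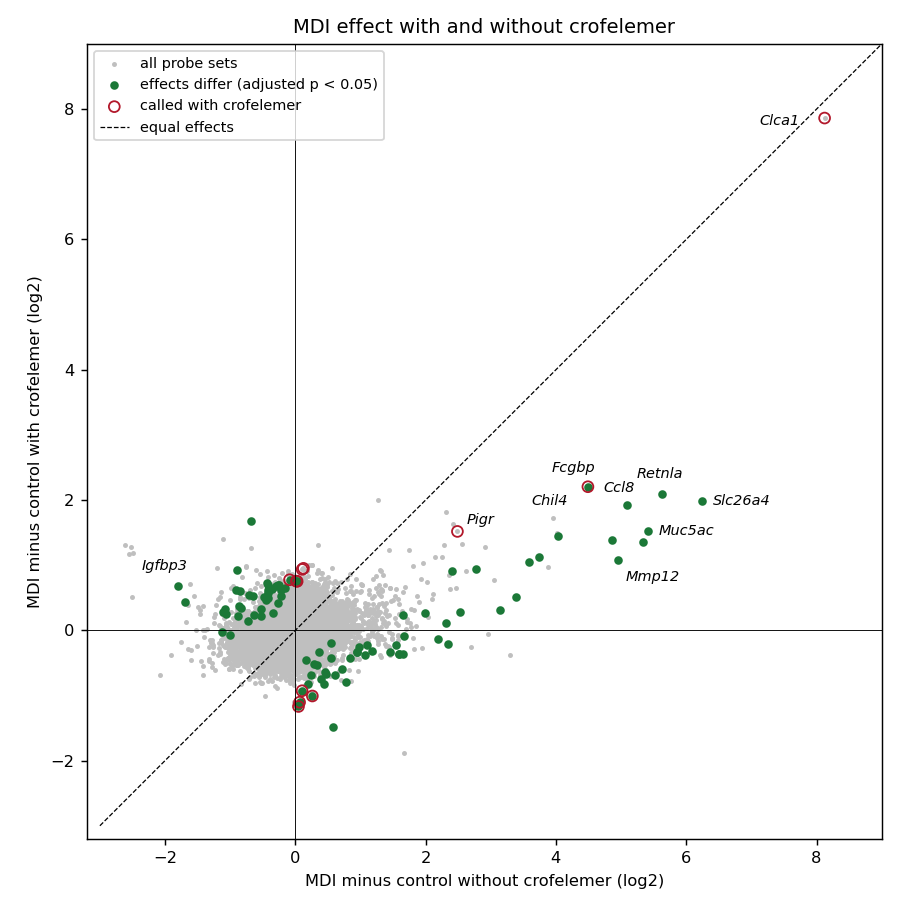
MDI minus control (log2) with crofelemer on the y axis and without crofelemer on the x axis, for all 22206 probe sets. Green points are the 94 whose effects differed at an adjusted p under 0.05, open red circles the 12 called with crofelemer, and the dashed line marks equal effects, on which Clca1 nearly lies.

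The test of the difference itself, the MDI effect with crofelemer minus the effect without, called 94 probe sets (0.423%), 54 lower (0.243%) and 40 higher (0.18%). At an unadjusted p under 0.05, 2679 passed (12.1%), 1442 higher (6.49%) and 1237 lower (5.57%). Of the 54, 45 were called higher by MDI without crofelemer, and of the 40, 29 were called lower by MDI without crofelemer. The other 20 were not called without the drug. Over all probe sets 5.3% were called higher and 9.23% lower without crofelemer. The effect without crofelemer is subtracted in the difference, which by itself favours these opposite signs, so the counts are not separate evidence of a smaller response. The count was 36 and 20 without MDI array 1 or 2 with crofelemer, 42 and 57 without control 2 or 4 with crofelemer, and 40, 58 and 62 without control 1, 4 or 5 of the mice without crofelemer. With each array centred on its median, 26 were called higher and 75 lower. Fitted on the 27 C57BL/6 arrays alone, the count was 10.

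Among mucus and anion transport genes the effects differed for some and not for others. Slc26a4 had an MDI effect of 1.98 with crofelemer and 6.24 without, a difference of -4.26 ± 0.87 (limma adjusted p = 0.0144). Muc5ac had effects of 1.52 with crofelemer and 5.41 without, a difference of -3.88 ± 0.69 (limma adjusted p = 0.00397), and this was called with any of the 27 arrays left out. Fcgbp had effects of 2.20 with crofelemer and 4.49 without, a difference of -2.29 ± 0.50 (limma adjusted p = 0.0232), which was lost without MDI array 1 or 3 with crofelemer (up to 0.148). Clca1 had effects of 7.86 with crofelemer and 8.12 without, a difference of -0.26 ± 1.17 (limma adjusted p = 0.96), whose 95% interval ran from -2.62 to 2.10, so a change of 2 on this scale in either direction lies within it. For Pigr the difference was -0.97 ± 0.40 (limma adjusted p = 0.294), and for Muc5b -0.92 ± 0.65 (limma adjusted p = 0.599).

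Type 2 effector genes were among the largest negative differences. Rnase2a differed by -3.97 ± 0.75 (limma adjusted p = 0.00578), with effects of 1.36 with crofelemer and 5.33 without. Mmp12 differed by -3.87 ± 0.92 (limma adjusted p = 0.0361), Retnla by -3.54 ± 0.69 (0.00922), Chia1 by -3.47 ± 0.65 (0.00578) and Ccl8 by -3.17 ± 0.67 (0.0183). Pla2g4c, a cytosolic phospholipase A2 that releases arachidonic acid, differed by -2.62 ± 0.48 (limma adjusted p = 0.00397), with effects of 1.12 with crofelemer and 3.74 without. Its control means, 4.42 with crofelemer and 3.82 without, and that of Rnase2a with crofelemer, 4.69, were below the level of Tg, so the sizes of these effects and differences may be off. Alox15, the lipoxygenase of eosinophils and alternatively activated macrophages, differed by -2.54 ± 0.57 (limma adjusted p = 0.0261). Ccl17, Chil4 and Ccl11 missed the threshold, with differences of -2.96, -2.23 and -2.53 and adjusted p-values of 0.0506, 0.0576 and 0.0638. The calls of Ccl8, Retnla and Slc26a4 were lost without MDI array 1 or 2 with crofelemer (limma adjusted p up to 0.134), that of Chia1 without array 1 (0.0641), and that of Pla2g4c without array 2 (0.0681). The call of Mmp12 was lost with any of 8 arrays left out (up to 0.164), and that of Rnase2a was kept with any of the 27 left out. In the fit on the 27 C57BL/6 arrays alone Muc5ac (0.0254) and Pla2g4c (0.0467) passed, while Rnase2a (0.0577), Chia1 (0.0627), Slc26a4 (0.0831), Fcgbp (0.0881), Ccl8 (0.115) and Mmp12 (0.134) did not.

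**Figure D3:**
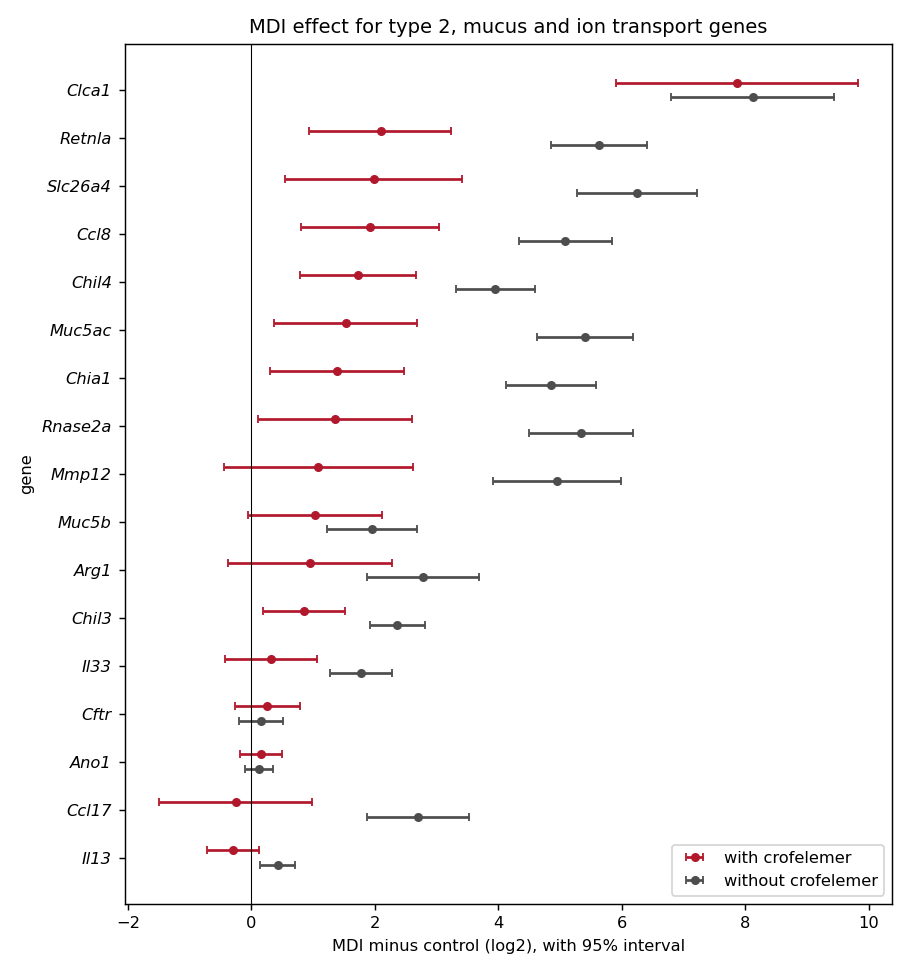
MDI minus control (log2, x axis) with crofelemer (red) and without it (grey) for 17 genes of mucus, type 2 inflammation and chloride transport, ordered by the effect with crofelemer. Points are limma estimates and bars 95% intervals; the intervals overlap for Clca1 and lie apart for Retnla, Slc26a4, Muc5ac and Rnase2a.

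The differences have to be read with the levels of both control groups, which were not alike. For the 54 probe sets with a lower effect under crofelemer, the median gap between MDI lungs with and without crofelemer (with minus without) was -0.975, and the median gap between the control groups (with minus without) was 0.593. The gap between the control groups was the larger of the 2 for 25 of the 54, beside 11875 of all 22206 probe sets, so that count is no feature of these 54. The control level was higher with crofelemer for 38 of the 54, beside 11790 of all 22206. Retnla averaged 14.98 ± 1.23 in control lungs with crofelemer and 12.93 ± 1.51 in control lungs without it (SD, n = 5 and 6). Its gap, with minus without crofelemer, was 2.05 in control lungs and -1.49 in MDI lungs. For Slc26a4, Mmp12 and Ccl8 the gaps were 1.45, 1.48 and 1.05 in control lungs and -2.81, -2.39 and -2.11 in MDI lungs. For Muc5ac, Rnase2a and Chia1 they were -0.291, -1.19 and -0.006 in control lungs and -4.17, -5.17 and -3.48 in MDI lungs. These gaps were not tested. Clca1 averaged 6.31 ± 0.765 in control lungs with crofelemer and 9.40 ± 2.48 in control lungs without it (SD, n = 5 and 6). Clca1 averaged 14.18 in MDI lungs with crofelemer and 17.52 in MDI lungs without it, and no MDI value with crofelemer (at most 15.97) reached the lowest MDI value without it (16.41). Its level was thus lower with crofelemer in both groups, by -3.34 in MDI lungs and -3.09 in control lungs as the difference of means, which was not tested. No MDI value of Muc5ac with crofelemer (6.06 to 8.43) reached the lowest MDI value without it (9.13). Whether crofelemer or another difference between the sets of arrays moved the controls cannot be told apart, since no label links the sets.

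Proliferation genes were among those whose control levels differed. Of 23 measured cell cycle genes, none was called by MDI with crofelemer and the median effect was -0.03. Without it 21 were called higher with a median of 1.25, beside 5.3% of all probe sets. The test of the difference between the effects called 1 of the 23, beside 0.423% of all probe sets. The mean level of the 23 genes was 7.83, 9.21 and 9.44 in MDI lungs with crofelemer and 8.12 to 9.77 in control lungs with crofelemer, and it was 7.31 to 8.97 in MDI lungs and 6.43 to 7.77 in control lungs without crofelemer. The crofelemer controls were thus above all controls without the drug. Mki67, the proliferation marker, was at 11.43, 10.38 and 11.73 in MDI lungs with crofelemer, against 10.82, 11.82, 10.53, 11.86 and 11.56 in control lungs with crofelemer. Its MDI effect was -0.14 with crofelemer and 2.19 without, a difference of -2.33 ± 0.55 (limma adjusted p = 0.0343). The 6 replication-linked histone genes H2ac4, H2ac11, H2ac12, H2ac13, H2ac22 and H2ac24 were also among the 54, with differences between -1.50 (H2ac13) and -2.03 (H2ac12). These histone genes are near-identical copies, and their probe sets may share signal.

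**Figure D4:**
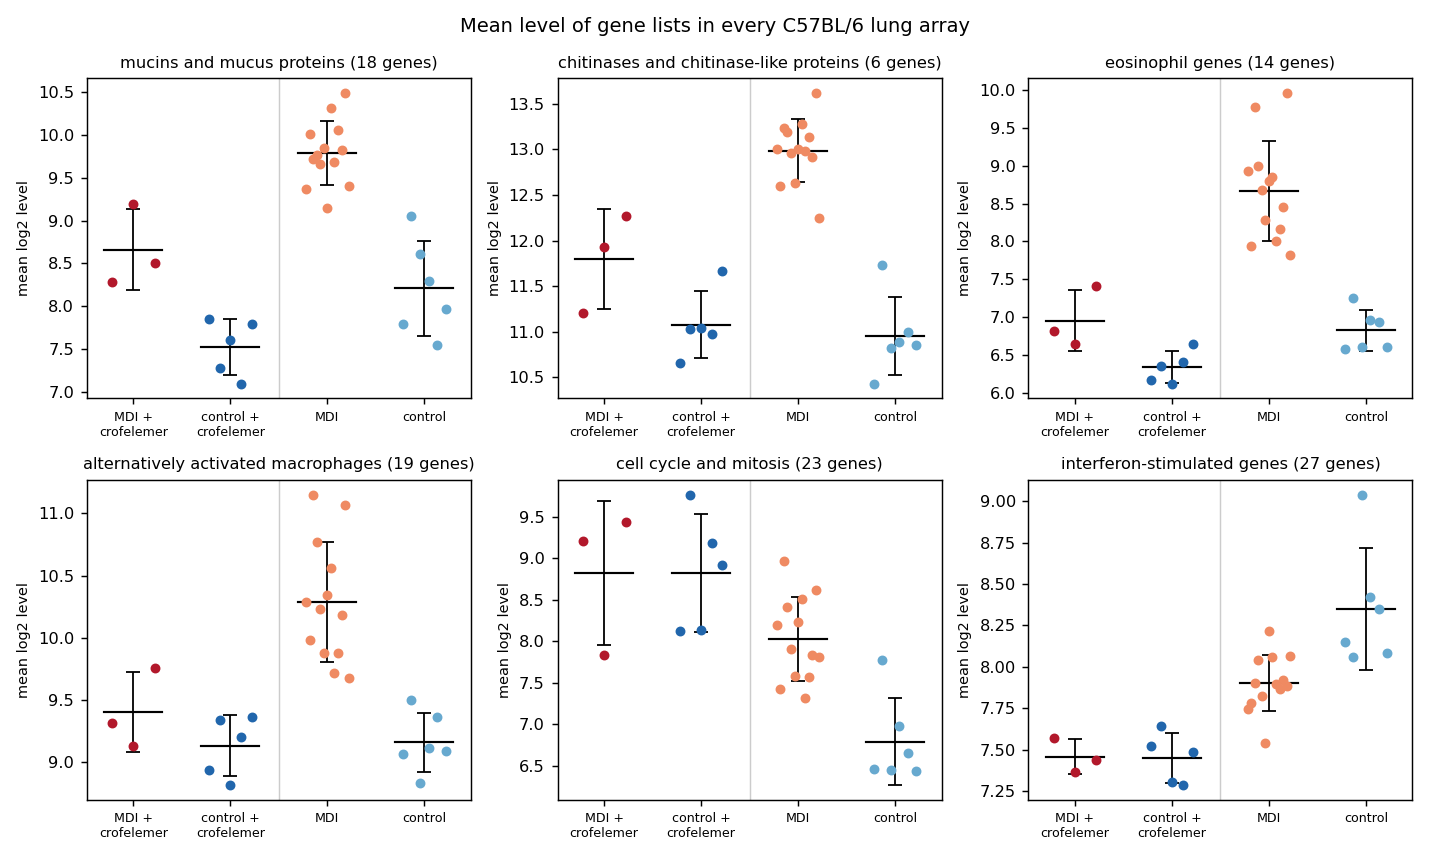
Mean log2 level of the measured genes of 6 lists (y axis, a separate scale for each list) in every C57BL/6 array. Points are arrays, horizontal lines group means and bars SD (n = 3, 5, 13 and 6). The mucus list, which includes the called genes Clca1, Fcgbp and Pigr, separates MDI from control arrays with crofelemer. The cell cycle list does not, and its crofelemer controls lie above the controls without crofelemer.

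Macrophage, complement and interferon genes gave no call by MDI with crofelemer. Of 19 measured genes of alternatively activated macrophages, none was called with crofelemer (median 0.20) and 13 were called higher and 3 lower without it (median 1.29). Mgl2, a galactose-binding lectin of these cells and of dendritic cells, had the largest effect with crofelemer, 1.30 ± 0.38 (limma adjusted p = 0.215). C3ar1, the receptor for complement fragment C3a, had an MDI effect of 0.11 with crofelemer and 2.31 without, a difference of -2.20 ± 0.55 (limma adjusted p = 0.0496). C3ar1 was at 12.14, 10.92 and 12.66 in MDI lungs with crofelemer, against 11.92, 11.49, 11.74, 12.29 and 11.52 in control lungs with crofelemer, and the highest control without crofelemer was at 9.14. Of 27 interferon-stimulated genes, none was called with crofelemer (median -0.02) and 14 were called lower without it (median -0.40). Over all probe sets 5.3% were called higher and 9.23% lower without crofelemer, and 0.054% were called with it. The test of the difference between the effects called 1 of the 19 macrophage genes, 2 of 16 measured complement genes and no interferon-stimulated gene. It called 0.423% of all probe sets.

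Structural and epithelial lists also gave no call with crofelemer. Of 15 measured alveolar type 1 genes, 10 were called lower by MDI without crofelemer (median -0.46) and none with it (median -0.08). Of 25 endothelial genes, 10 were called lower and 1 higher without crofelemer (median -0.39) and none with it (median -0.13). Of 19 cytochrome P450 and xenobiotic metabolism genes, 11 were called lower without crofelemer (median -0.77) and none with it (median -0.17). Over all probe sets 9.23% were called lower without crofelemer and 0.018% with it, from 13 and 6 arrays against 3 and 5. The test of the difference between the effects called no member of these lists, beside 0.423% of all probe sets.

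Among the 8 largest positive differences with a gene name, Igfbp3, Cyp2a4, Gsta2, Tubb1, Slc16a3, Colgalt2 and Grtp1 were called lower by MDI without crofelemer, and Pisd-ps3 was not. Igfbp3, a binding protein for insulin-like growth factors, was at 6.94, 7.79 and 6.77 in MDI lungs with crofelemer, against 6.32, 6.62, 6.46, 6.40 and 6.64 in control lungs with crofelemer. Its effect was 0.68 with crofelemer and -1.81 without, a difference of 2.48 ± 0.35 (limma adjusted p = 9.77e-05) that was called with any of the 27 arrays left out. Its mean was 6.49 in control lungs with crofelemer and 10.00 in control lungs without it, where the lowest array was at 9.40, so the control groups did not overlap. Gsta2, a glutathione transferase, differed by 1.82 ± 0.42 (limma adjusted p = 0.033), Cyp2a4, a steroid hydroxylase, by 2.13 ± 0.51 (0.035), and Slc16a3, a lactate transporter, by 1.46 ± 0.31 (0.0203). Tubb1, a platelet tubulin, differed by 1.54, Colgalt2, a collagen galactosyltransferase, by 1.41, Grtp1 by 1.39, and the pseudogene Pisd-ps3 by 2.35, with effects of 1.67 with crofelemer and -0.68 without. With 1 of the 27 arrays left out, the call of Colgalt2 was kept in 8 fits (limma adjusted p up to 0.205), Cyp2a4 in 20 (0.245), Gsta2 in 21 (0.193), Grtp1 in 21 (0.202), Tubb1 in 22 (0.245), Slc16a3 in 25 (0.0718) and Pisd-ps3 in 26 (0.0624). Pisd-ps3 and Cyp2a4 have close sequence relatives, and their probe sets may share signal. For the 40 probe sets with a higher effect under crofelemer, the gap between the control groups was larger than that between the MDI groups for 29, and 1 had a higher control level with crofelemer.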

How the data were processed

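Lung RNA (250 ng) was labelled with biotin and hybridized to arrays, per the labels' protocols. The authors deposited log2 values for 22206 probe sets in 51 arrays, made with the Transcriptome Analysis Console per the submitters' processing notes. Normalization, software version and genome build: not given in the sources used here. Values ran from 1.86 to 20.91, and the number of arrays limits the precision. Groups came from titles and descriptions. The labels of 2 arrays contradict each other on crofelemer, and these were left out of every comparison. The other 49 arrays, including Balb/c and B cell deficient mice without crofelemer, were fitted as 8 group means with limma 3.58.1 (R 4.3.3, empirical Bayes with an intensity trend, 41 residual degrees of freedom). P-values were Benjamini-Hochberg adjusted over all probe sets, with a threshold of 0.05, and the procedure was tested on simulated data. Where 55 symbols had several probe sets, the brightest stood for the gene, and 2634 probe sets had no symbol. Named were the called genes with up to 12 of the largest rises and 12 of the largest falls, up to 6 members of each of 41 gene lists by adjusted p, 17 genes of mucus, type 2 inflammation and chloride transport, and up to 8 genes in each direction of the difference between effects. The genes and lists were chosen with earlier results of these data known. A few genes outside the rule (C3ar1, Mki67, the histones) were chosen after their values were seen, as were Bpifa1 and Myl7 from among the list members. Epx, Sftpc and Tg also lie outside the rule. Alternatives covered normalization, filtering, variance estimation, the arrays fitted and a replicate block.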

Additional observations from a re-analysis of the deposited data

Results flagged for a closer look

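By the limma test of the difference itself, the MDI effect differed between mice with and without crofelemer for 22 of 34 genes. These 34 were named for their size of change, for the difference itself or as genes of mucus, type 2 inflammation and chloride transport. Those named for the difference were chosen because they passed this same test. Those named for their size of change were chosen by the effect with crofelemer, which enters the difference. The count is therefore largely set by the choice of genes, and over all 22206 probe sets 94 passed (0.423%). Members named only from the gene lists are not counted here, and Alox15, Cd209e and Scin among them also passed. On the log2 scale, with the effect without crofelemer subtracted from the effect with it, the difference was -4.263 for Slc26a4, -3.972 for Rnase2a, -3.884 for Muc5ac, -3.869 for Mmp12, -3.542 for Retnla, -3.47 for Chia1 and -3.165 for Ccl8. It was -2.622 for Pla2g4c and -2.287 for Fcgbp. Among genes called with crofelemer it was -1.217 for Tsnaxip1, -1.169 for Ccdc25, -1.031 for Psip1, 0.7386 for Dbpht2 and 0.7239 for Tchh. It was 2.484 for Igfbp3, 2.348 for Pisd-ps3, 2.133 for Cyp2a4, 1.816 for Gsta2, 1.541 for Tubb1, 1.455 for Slc16a3, 1.408 for Colgalt2 and 1.387 for Grtp1. With 1 of 27 arrays left out, the call was kept in 11 fits for Tsnaxip1, 26 for Ccdc25, 23 for Psip1, 19 for Dbpht2 and 13 for Tchh. In the fit on the 27 C57BL/6 arrays alone, Ccdc25 passed (limma adjusted p = 0.0428). Psip1 (0.134), Tsnaxip1 (0.138), Dbpht2 (0.119) and Tchh (0.14) did not.

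A single control array with crofelemer stood apart from the other 4 by Dixon's test for Chia1 (control 5, at 8.62) and for Grtp1 (control 3, at 5.80). These were 2 of 34 genes examined, and chance gives about 1 in 20.

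Clca1 was at 15.94 in the array titled as MDI exposed and crofelemer number 4, and at 19.24 in the array titled as MDI exposed number 13. Both were above every control array with crofelemer, and both carry labels that contradict each other on crofelemer.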

How the results depend on the processing

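The count of 12 probe sets called with crofelemer was 2 in the fit on the 27 C57BL/6 arrays, 22 after quantile normalization (10 higher and 12 lower), 4 with dim probe sets filtered out, 5 with array weights and 6 when a 2-fold change was also asked for. It was between 1 and 13 with 1 array left out. On the 8 crofelemer arrays alone it was 8, and with 1 of them left out it was 9, 8 and 4 without MDI array 1, 2 or 3, and 4, 5, 2, 5 and 29 without control 1 to 5. The count of 94 differences was 10 on the 27 C57BL/6 arrays, 53 with array weights, and between 20 and 125 with 1 array left out. Same-numbered MDI and control arrays with crofelemer had deviations correlated at 0.158, -0.263 and -0.171. Differently numbered arrays ran from -0.279 to 0.312, so these values cannot tell whether the numbers pair the arrays. With a replicate block over arrays numbered 1 to 3, 14 probe sets were called with crofelemer and 4 differences. The Clca1 difference was 1.94 with that replicate block, against -0.26, and ran from -1.16 to 1.05 with 1 array left out, with no call in any. With 1 array left out, the effect with crofelemer ran from -0.701 to 0.149 for Ccl17, from -0.021 to 0.684 for Cyp2a4 and from -0.018 to 0.547 for Il33, none called, and the crofelemer arrays alone gave the same turned signs. The cause of these changes was not tested. For the named genes with crofelemer, 262 of the results under other settings kept their side of the threshold, 29 lost the call and 9 gained it. Of these 34 genes 9 were called in the main fit, so most of the 262 were uncalled genes that stayed uncalled. The 29 losses all fall on those 9 called genes. Clca1 was called with crofelemer under every setting run.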

Other observations

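The 2 arrays with contradictory labels entered no comparison. In the array titled as MDI exposed and crofelemer number 4, Muc5ac was at 7.85, Fcgbp at 8.74, Slc26a4 at 9.25, Retnla at 18.26, Ccl8 at 9.65 and Rnase2a at 6.53. In the array titled as MDI exposed number 13, Muc5ac was at 11.99, Fcgbp at 12.06, Slc26a4 at 12.38, Retnla at 19.13, Ccl8 at 12.23 and Rnase2a at 12.01.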
